A study of Mus musculus with 2 samples.

Results

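The nuclear factor I (NFI) family comprises 4 genes, Nfia, Nfib, Nfic and Nfix, and each was found by its Ensembl identifier in the gene tables of 2 libraries of mouse forebrain. These are 4 of the 43346 genes listed with Ensembl identifiers. The libraries are biological replicates of 1 group: total RNA from forebrains of healthy B6NCrl embryos at embryonic day 16.5, males and females pooled. The labels name no treatment, mutation or transgene. Replicate 2 was pooled from 41 embryos, and replicate 1 from a number the labels do not state. Each library started from 10 ng of RNA longer than 200 nt, with ERCC spike-in RNAs added, and held 31211128 gene counts in replicate 1 and 26957198 in replicate 2. With 1 group there is no comparison of conditions, so levels are given for each library with mean ± SD (n = 2) and no p-value is given.

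NFI proteins are transcription factors that bind DNA as dimers of the same or of different members, at a palindrome made of TTGGC and GCCAA. The first part of the protein holds the DNA-binding and dimerization domain, and the later part, which is spliced in several ways, activates or represses transcription. In the embryonic forebrain, Nfia, Nfib and Nfix are known for driving radial glia, the neural stem cells, away from self-renewal and towards neurons and glia, and mice lacking Nfia or Nfib fail to form the corpus callosum. Nfic is best known for the growth of tooth roots.

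All 4 genes have a second exon of 532 bases, which encodes most of the DNA-binding domain. Set side by side without gaps, the 4 exons carry the same base at 351 positions, or 66.0%, and pairs of members are 75.8% (Nfia and Nfic) to 82.0% (Nfic and Nfix) identical. Within the 3 positions of a codon, the share of bases identical in all members runs from 23.7% to 92.7%. The 60 bases from position 53 to 112 of the exon were picked because no window of that length holds more bases identical in all members. They are printed to show how close the members are at most where their reads must be told apart. Capitals mark the 48 bases that are identical in all 4 members. The letters are those of GENCODE M21 transcripts on GRCm38, the assembly also called mm10.
Nfix (chr8:84772204-84772263, minus strand): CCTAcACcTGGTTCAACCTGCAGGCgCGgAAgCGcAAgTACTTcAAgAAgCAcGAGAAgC
Nfib (chr4:82498658-82498717, minus strand): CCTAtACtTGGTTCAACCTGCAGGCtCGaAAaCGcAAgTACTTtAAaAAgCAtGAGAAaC
Nfia (chr4:97783134-97783193, plus strand): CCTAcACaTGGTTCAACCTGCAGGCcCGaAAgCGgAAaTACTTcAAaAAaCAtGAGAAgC
Nfic (chr10:81420687-81420746, minus strand): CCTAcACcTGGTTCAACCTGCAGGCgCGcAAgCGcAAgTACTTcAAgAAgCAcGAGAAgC
The longest run of letters shared exactly by transcripts of any pair of members was 32 bases (Nfic and Nfix), against an implied fragment length of 100 bases. The authors' posterior SD of the gene count was 0 for Nfia, Nfib and Nfic, and 1.28 and 1.17 counts for Nfix in replicates 1 and 2.

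Nfix had the highest level of the family in TPM (counts scaled by transcript length and to a fixed sum per library), although Nfib was higher once both were set on their longest transcripts. It had 364 and 460 TPM in the 2 libraries, replicate 1 first, a mean of 412 ± 67.6. Nfix (ENSMUSG00000001911.12) lies on chromosome 8 from 84699876 to 84800344, on the minus strand. Nfib had 218 and 234 TPM, a mean of 226 ± 10.7. It lies on chromosome 4 from 82290173 to 82705750, on the minus strand (ENSMUSG00000008575.13). Nfia had 73.5 and 82.4 TPM, a mean of 77.95 ± 6.31. It lies on the plus strand of chromosome 4 from 97772734 to 98118874 (ENSMUSG00000028565.14). Nfic was the lowest, at 19.6 and 20.8 TPM, a mean of 20.2 ± 0.792, on chromosome 10 from 81396186 to 81455635, minus strand (ENSMUSG00000055053.13). On this scale the order Nfix, Nfib, Nfia, Nfic was the same in both libraries, and the ranges of no pair of members overlapped. In bulk tissue, fewer cells that express a gene and less of its RNA per cell cannot be told apart.

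The place of Nfix above Nfib rested on the lengths given to their transcripts. In expected counts, which are not scaled by length, Nfib led with 26664 in replicate 1 and 25643 in replicate 2. Nfix had 11523 and 12125 counts, close to the 11350 and 11172 of Nfia. Nfic had 1209 and 1075 counts. The authors' effective length was 1685 and 1672 bases for Nfix, against 6504 and 6966 for Nfib, 8228 and 8602 for Nfia and 3281 and 3287 for Nfic. The TPM of each member was then rescaled to the effective length of its longest listed transcript. Other genes kept their lengths and the library was not scaled again to its fixed sum, so these levels compare between members only. Nfib stood at 169 ± 16.2 TPM, Nfix at 129 ± 20.4, Nfia at 69.7 ± 7.81 and Nfic at 10.8 ± 0.439. The log2 ratio of Nfix to Nfib was 0.86 ± 0.17 in deposited TPM, and on the longest transcripts it turned to -0.40 ± 0.09. Counting only coding transcripts with complete ends gave -0.05 ± 0.14, which is within the spread of the libraries. That sum leaves out the reads given to other transcripts. It kept 51.8% and 54.2% of the counts of Nfix in replicates 1 and 2, against 85.0% and 90.3% for Nfib. The order of Nfib, Nfia and Nfic among themselves was the same in deposited TPM, on the longest transcripts and with complete coding transcripts only.

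**Figure D1:**
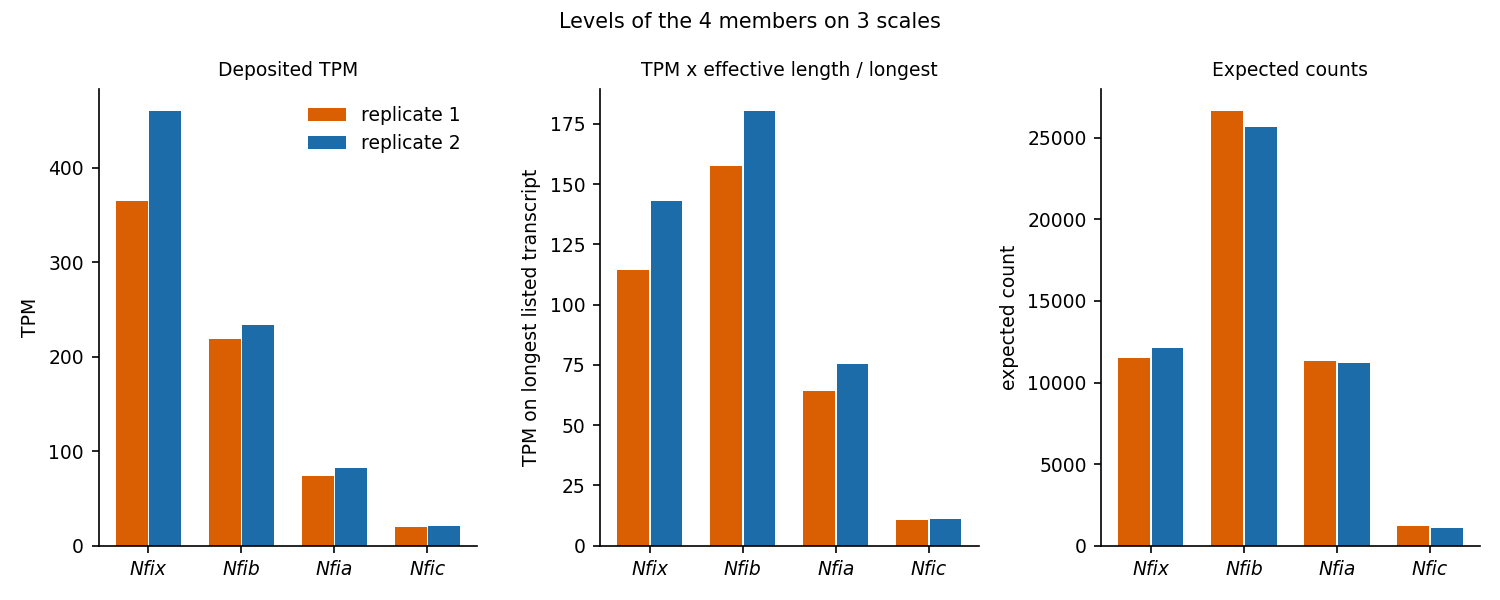
Level of Nfix, Nfib, Nfia and Nfic in replicate 1 (orange) and replicate 2 (blue), as deposited TPM (left), as TPM with the effective length of the longest listed transcript (middle) and in expected counts (right), each axis from 0. Nfix is the highest in the left panel at 364 and 460 TPM, and Nfib is the highest in the other panels.

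By deposited TPM, Nfix made up 55.8 ± 2.71% of the family's summed level, Nfib 30.8 ± 2.12%, Nfia 10.6 ± 0.374% and Nfic 2.75 ± 0.212%. By counts the shares were 51.9 ± 0.900% for Nfib, 23.5 ± 1.09% for Nfix, 22.4 ± 0.0203% for Nfia and 2.27 ± 0.165% for Nfic. The family summed to 676 and 797 TPM in replicates 1 and 2. Among 21474 protein-coding genes Nfix ranked 320 and 225, Nfib 667 and 628, Nfia 2459 and 2210, and Nfic 6867 and 6711 in replicates 1 and 2. Nfix, Nfib and Nfia thus stood above 88.5% of protein-coding genes or more in each library, and Nfic above 68.0% and 68.7%.

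A list of 54 forebrain transcription factors gave the genes nearest in level, by Euclidean distance in log2(TPM + 1) over the 2 libraries. Nearest to Nfix was Neurod6, a factor of young cortical excitatory neurons, at 389 and 489 TPM (distance 0.13), followed by Tcf4 and Id2. Nearest to Nfib were Bcl11a, at 196 and 207 TPM (0.23), Sox4 and Dlx1. Near Nfia in level were Hes5, a Notch target of radial glia, at 75.9 and 85.0 TPM (0.06), and Bcl11b. Nearest to Nfic were Sox6, at 18.4 and 19.9 TPM (0.10), Pou3f1 and Rorb. Nfix and Nfib each had 4 of the 54 factors above them in mean TPM, Nfia 19 and Nfic 44. These distances describe levels in 2 libraries of 1 tissue and rest on the same length models.

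The 4 genes have 34 listed transcripts, of which 19 held 5% or more of their gene's TPM in either library. The leading transcript was the same in both libraries for 4 of 4 genes. Nfix-205 led Nfix with 58.7% in replicate 1 and 55.3% in replicate 2. It is annotated as incomplete at its 3′ end and is 1465 bases long. Nfix-201, of 400 codons, held 22.7% and 26.8%. Nfix-204, of 494 codons and 5476 bases, held 9.05% and 8.78% of the TPM but 28.9% and 28.2% of the counts. Nfix-204 was covered by 61.9 and 63.7 counts per 100 bases of effective length, against 401 and 401 for Nfix-205. Coding transcripts with complete ends held 35.9% and 39.6% of the TPM of Nfix, against 83.4% or more for Nfia and Nfic in each library and 66.3% and 75.4% for Nfib.

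Nfib-202, a coding transcript of 420 codons, led Nfib with 59.6% in replicate 1 and 68.3% in replicate 2. The longest coding form, Nfib-201 of 570 codons, held 5.86% and 6.15%. Transcripts annotated with a retained intron held 27.9% and 19.4% of the TPM of Nfib, mostly Nfib-208 at 19.7% and 12.6%. Such a transcript keeps intron sequence and has no annotated protein. The processed transcript Nfib-211, which also has no coding region, held 5.40% and 5.09%. In Nfix, retained-intron models held 2.57% and 2.59% of the TPM, and none of the listed transcripts of Nfia and Nfic belongs to that class.

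Nfia was divided most evenly. Nfia-202, of 509 codons, held 46.7% in replicate 1 and 30.0% in replicate 2. Nfia-205, of 498 codons, held 14.9% and 27.8%, and Nfia-204, of 380 codons, held 19.0% and 28.1%. These shares moved in opposite directions between the libraries, and the authors' posterior SD was 565 and 533 counts for Nfia-202, whose counts were 6075 and 3678. Nfia-203 held 4.64% and 5.71%, Nfia-206 6.53% and 3.78%, and Nfia-208 5.90% and 3.02%. Nfic was led by Nfic-201, of 439 codons, at 52.3% and 57.6%, followed by Nfic-203 at 18.3% and 20.8%. Nfic-206 held 9.42% and 16.6%, from only 13.1 and 20.5 counts. Nfic-204 held 12.5% and 5.03%. Nfic-202 held 7.48% in replicate 1 and was listed at 0 in replicate 2. Its counts were 84.4 and 0, with a posterior SD of 41.5 and 16.4. By the authors' posterior mean, its share in replicate 2 was 1.88%.

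**Figure D2:**
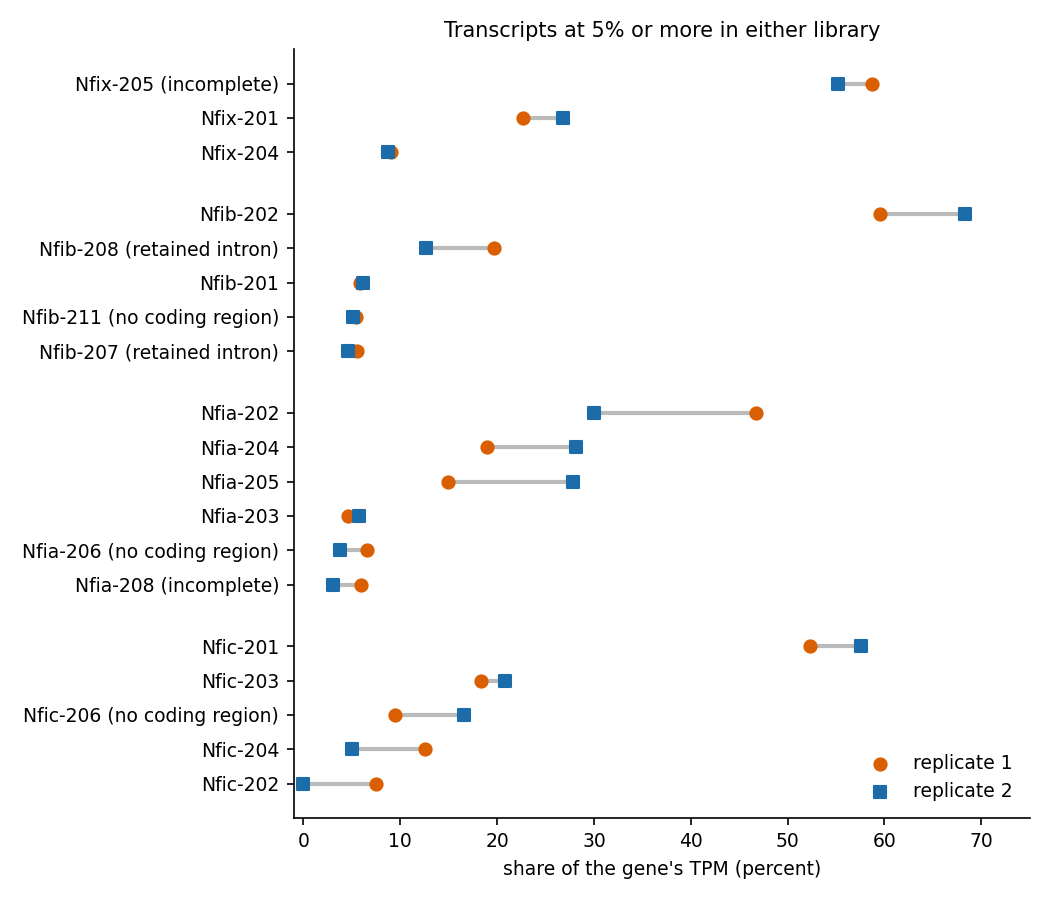
Share of the gene's TPM (percent, horizontal axis) held by each transcript at 5% or more in replicate 1 (circles) or replicate 2 (squares), with a grey line between the libraries. Nfix-205, Nfib-202 and Nfic-201 hold more than 50% of their gene in each library, and Nfia-202 holds 46.7% in replicate 1 and 30.0% in replicate 2.

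With annotated starts within 500 bp merged, most of each gene's TPM came from transcripts that begin in 1 region. With starts within 100 bp merged instead, the mean share of the leading region was 46.8% for Nfia, 76.9% for Nfib and 56.97% for Nfix. At 500 bp these shares were 90.4%, 94.5% and 81.8%, and that of Nfic was the same at both distances. For Nfia the region at 500 bp spans 97777608 to 97777834 on chromosome 4 and held 87.6% in replicate 1 and 93.2% in replicate 2. For Nfib it spans 82505308 to 82505779 on chromosome 4 and held 94.1% and 94.8%. For Nfic it spans 81427114 to 81427187 on chromosome 10 and held 78.1% and 78.4%. For Nfix the most upstream region, from 84800024 to 84800344 on chromosome 8, held 81.4% and 82.2%. Nfix-204 begins further downstream at 84773396, with 9.05% and 8.78%, and Nfix-203 at 84774369, with 4.15% and 3.80%. A start region here is the sum of modelled transcripts and not a direct count of 5′ ends.

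RefSeq promoters (GRCm38.p6, from 250 bases before to 50 after a start) were searched for the NFI palindrome, TTGGC and GCCAA separated by 5 unspecified bases. The palindrome was in 0.0365% of 32851 promoters and in none of those of Nfia, Nfic and Nfix. Nfib has no promoter in this set and was not searched. The Nfia promoter belongs to a start at 97581943, upstream of the gene bounds given above. Those of Nfix belong to starts from 84772875 to 84780082, downstream of its leading start region. Of the leading start regions given above, only that of Nfic was covered, by a promoter for a start at 81427173. TTGGC on its own, on either strand, was in 46.7% of promoters, in 3 of the 4 of Nfix and in neither the single promoter of Nfia nor that of Nfic. These are letter matches in a short window and nothing follows from them about binding.

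The exons after the second could be lined up across the family by order, from place 3 to the last exon at place 11, using Nfia-202, Nfib-201, Nfic-201 and Nfix-204. Nfic-201 has no exon at place 9, and Nfib-201 carries an extra exon of 89 bases after place 10. Pairs of exons in the same place were 40.3% to 74.7% identical in a global alignment, with a median of 57.4% over 45 pairs. Exons of different members in different places and of similar length were 36.1% to 52.7% identical, with a median of 43.8% over 100 pairs. Inclusion is the TPM of transcripts that hold an exon as a percent of the TPM of all transcripts of the gene that span it. Where every listed spanning transcript holds an exon, inclusion is 100% whatever the reads.

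Place 10, the exon before the last, is present in all 4 genes and was used to different extents. No listed transcript of Nfix that spans it skips it, so its 100% there was fixed in advance and measures no use. Nfix-205 ends within it and is not counted. In Nfia, where it has 92 bases, it was in 82.9% in replicate 1 and 70.1% in replicate 2. In Nfic, where it has 77 bases, it was in 79.8% and 75.1%. In Nfib, where it has 83 bases, it was in 9.84% and 9.06%, so the values of Nfib did not overlap those of Nfia or Nfic. The exon belongs to the late, regulatory part of the protein. Its 4 versions are printed because Nfib mostly skipped it and Nfia and Nfic mostly kept it. Capitals mark bases that align to the same base in Nfia, and in Nfia the bases shared with the 3 other members.
Nfix (chr8:84713766-84713857, minus strand): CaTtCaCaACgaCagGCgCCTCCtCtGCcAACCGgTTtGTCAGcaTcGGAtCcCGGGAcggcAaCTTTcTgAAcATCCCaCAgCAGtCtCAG
Nfib (chr4:82320474-82320556, minus strand): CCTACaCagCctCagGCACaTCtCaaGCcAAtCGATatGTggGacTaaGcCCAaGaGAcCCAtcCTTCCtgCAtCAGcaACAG
Nfia (chr4:98081725-98081816, plus strand): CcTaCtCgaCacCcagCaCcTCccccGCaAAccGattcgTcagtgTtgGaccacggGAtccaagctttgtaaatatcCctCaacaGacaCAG
Nfic (chr10:81403352-81403428, minus strand): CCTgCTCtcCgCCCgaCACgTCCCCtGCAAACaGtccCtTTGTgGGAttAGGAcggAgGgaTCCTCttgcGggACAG
Identity at place 10 ran from 48.9% (Nfic and Nfix) to 66.3% (Nfia and Nfix).

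Place 9 also separated the members. All spanning transcripts of Nfia held it. In Nfix, its 148 bases were in 71.6% of the spanning TPM in replicate 1 and 67.5% in replicate 2. In Nfib, its 166 bases were in 8.84% and 8.16%. The leading Nfib transcript, Nfib-202, skips places 9 and 10 together.

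At place 7 the order was different. All spanning transcripts of Nfib held the exon. In Nfia it was in 95.1% of the spanning TPM in replicate 1 and 94.1% in replicate 2, and in Nfic in 91.7% and 100%. In Nfix it was in 71.6% and 67.7%, below Nfia and Nfic in both libraries. Nfix-201 and Nfix-203 skip it. The 4 versions are printed for this difference, with capitals as above.
Nfix (chr8:84723728-84723850, minus strand): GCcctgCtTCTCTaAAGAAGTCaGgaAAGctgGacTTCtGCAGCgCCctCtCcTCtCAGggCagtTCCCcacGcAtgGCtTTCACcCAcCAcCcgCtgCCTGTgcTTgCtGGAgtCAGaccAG
Nfib (chr4:82330292-82330426, minus strand): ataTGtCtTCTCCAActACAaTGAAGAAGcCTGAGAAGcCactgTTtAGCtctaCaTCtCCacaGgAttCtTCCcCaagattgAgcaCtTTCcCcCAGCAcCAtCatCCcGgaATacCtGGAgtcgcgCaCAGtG
Nfia (chr4:98041551-98041679, plus strand): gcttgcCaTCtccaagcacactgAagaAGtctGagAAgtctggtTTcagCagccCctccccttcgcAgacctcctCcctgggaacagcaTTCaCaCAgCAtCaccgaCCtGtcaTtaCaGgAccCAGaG
Nfic (chr10:81406089-81406214, minus strand): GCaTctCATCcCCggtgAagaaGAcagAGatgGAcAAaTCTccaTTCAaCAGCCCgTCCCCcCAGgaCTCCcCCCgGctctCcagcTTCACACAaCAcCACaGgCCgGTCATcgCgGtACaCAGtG
The versions at place 7 were 53.2% to 59.7% identical in pairs, and their lengths of 123 (Nfix), 135 (Nfib), 129 (Nfia) and 126 bases (Nfic) are all multiples of 3, so that skipping this exon alone keeps the reading frame.

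Upstream of place 7, Nfia differed from the rest. Its exons at places 4 to 6 were in 79.9% of the spanning TPM in replicate 1 and 71.0% in replicate 2, because Nfia-204 lacks all of them and place 3 as well. The same places were in every spanning transcript of Nfib and Nfic. In Nfix, places 3 to 5 were in every spanning transcript, and place 6 was in 95.6% and 96.0%.

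**Figure D3:**
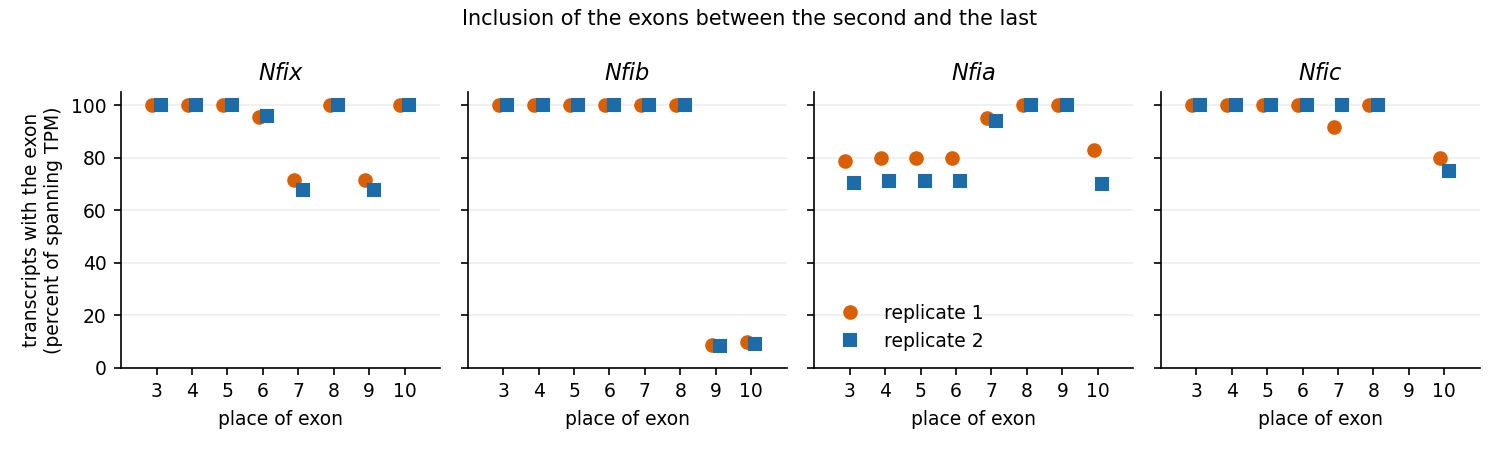
Inclusion (percent of the TPM of spanning transcripts) of the exons at places 3 to 10 in Nfix, Nfib, Nfia and Nfic, for replicate 1 (circles) and replicate 2 (squares). Nfib lies below 10% at places 9 and 10, and Nfix lies near 70% at places 7 and 9.

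Between the libraries, all members were lower in replicate 1 relative to the other genes, and none by 2-fold. The log2 ratio of replicate 1 to replicate 2, from expected counts rounded to whole numbers and scaled by edgeR's trimmed mean (TMM), was -0.31 for Nfix, with a 95% counting interval of -0.35 to -0.27. It was -0.21 for Nfia (-0.25 to -0.17), -0.18 for Nfib (-0.20 to -0.15) and -0.07 for Nfic (-0.19 to 0.05), whose interval holds equality. A gene was called when its mean count was 50 or more, its ratio 2-fold or more and its interval away from equality. None of the 4 members was called, against 1.37% of 13927 genes, or 191 genes, of which 140 were higher in replicate 1 and 51 in replicate 2. The median of all genes was -0.01. The absolute ratio of Nfix exceeded that of 78.7% of the genes, Nfia 65.6%, Nfib 59.0% and Nfic 25.1%. The intervals cover counting error only, and with 1 library on each side they say nothing about the spread among pools.

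**Figure D4:**
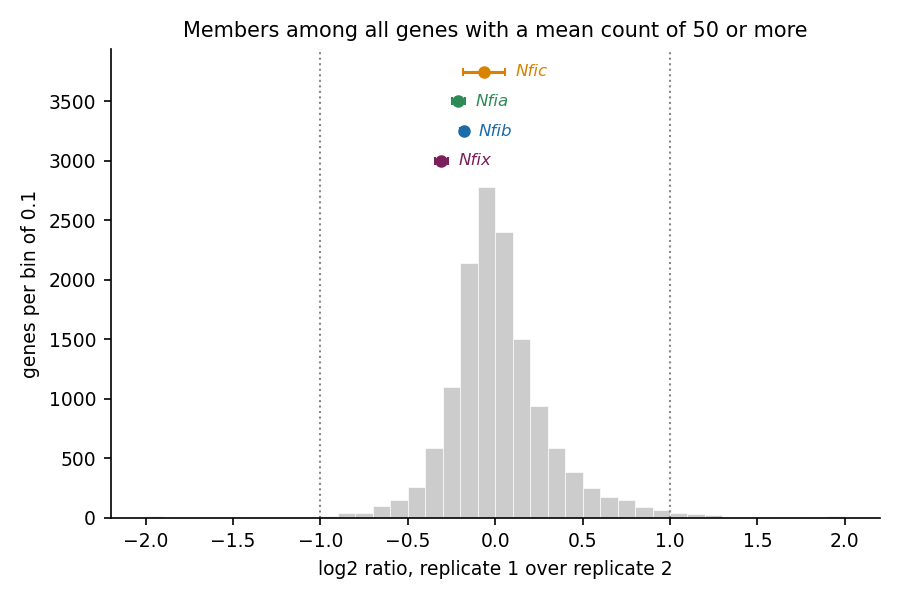
Number of genes (vertical axis) by log2 ratio of replicate 1 over replicate 2 in bins of 0.1 among 13927 genes with a mean count of 50 or more, with values beyond 2 in either direction placed in the end bins. Points above the bars give the 4 members with their 95% counting intervals, at heights with no meaning, and dotted lines mark a 2-fold difference. Members lie between -0.31 and -0.07.

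Within Nfib the classes of transcripts moved apart. Retained-intron transcripts took 3923 counts from replicate 1 and 2421 from replicate 2, which is 0.46 (0.39 to 0.54) as a log2 ratio. Coding transcripts took 22679 and 23169 counts, or -0.27 (-0.29 to -0.24). The counts of each class come from the authors' division of reads among overlapping models. In Nfia, the coding transcripts Nfia-202 and Nfia-205 stood at 0.49 (0.43 to 0.55) and -1.05 (-1.13 to -0.96). These intervals leave out the uncertainty of that division, which for Nfia-205 was a posterior SD of 495 and 513 on 1884 and 3305 counts.

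Markers of other tissues also differed between the libraries. Of 5 genes of connective tissue and meninges, 5 were lower in replicate 1 and 2 were called (Col1a1 and Col1a2), and their sum was 121 and 322 TPM in replicates 1 and 2. Genes of bone, cartilage and tooth summed to 15.1 and 43.7 TPM, and 2 of the 5, Ibsp and Col2a1, were called. The tooth enamel gene Ambn was at 0 and 0.07 TPM. All 6 radial glia genes were lower in replicate 1 as well, with sums of 1758 and 2200 TPM, and none was called. Neuron genes summed to 3979 and 3666 TPM. The part of these differences in the ratios of the NFI genes was not tested. As for the labelled tissue, 6 of 6 forebrain genes reached 1 TPM in each library and 0 of 6 midbrain and hindbrain genes did, with Hoxa2 and Hoxb4 at 0 counts. Gata3, of the same list, had 16 and 93 counts (0.34 and 1.89 TPM) and was called, at a log2 ratio of -2.74, and the list summed to 0.66 and 3.23 TPM.

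Genes that earlier work connects with NFI proteins were mostly present, as were most protein-coding genes. Of 8 glial genes reported to be bound or activated by NFI proteins, 7 were detected at 1 TPM or more in both libraries, against 60.7% of all protein-coding genes. Fabp7, a fatty acid binding protein of radial glia, was at 1172 and 1456 TPM in replicates 1 and 2. The glutamate transporter Slc1a3 was at 102 and 123 TPM, Mmd2 at 64.0 and 77.2 TPM, and Aldh1l1, an enzyme that marks astrocytes, at 27.98 and 31.98 TPM. Zcchc24 was at 8.72 and 11.6 TPM and Apcdd1 at 4.50 and 4.75 TPM. The intermediate filament gene Gfap, known from mature astrocytes, was at 1.05 and 1.97 TPM and the calcium-binding S100b at 0.96 and 1.05 TPM. Levels of astrocyte genes were uneven, since Aldoc, on the astrocyte marker list, was at 127 and 158 TPM. For the 7 genes with enough counts all ratios were negative (median -0.30), and none was called.

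All 4 progenitor genes reported to be repressed by NFI proteins were detected, against 60.7% of all protein-coding genes. Ezh2, the methyltransferase of Polycomb complex PRC2, was at 107 and 115 TPM in replicates 1 and 2. Sox9, a factor of neural stem cells that also acts upstream of Nfia, was at 40.3 and 51.1 TPM. Bbx was at 22.5 and 25.3 TPM and the Notch target Hes1 at 7.96 and 12.3 TPM. Of 5 neuronal and asymmetric division genes, 3 were detected, or 60%, which is near the 60.7% of all protein-coding genes. The cadherin Cdh2 was at 186 and 215 TPM, the axonal adhesion molecule Cntn2 at 112 and 125 TPM and the ephrin Efnb1 at 41.7 and 48.8 TPM. Insc, which orients the mitotic spindle, was at 0.59 and 0.89 TPM. Gabra6, a receptor subunit of cerebellar granule neurons that NFI proteins switch on there, had 2 counts in replicate 1 and 0 in replicate 2.

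All 8 upstream factors and partners were detected, against 60.7% of all protein-coding genes. The DNA methyltransferase Dnmt1 was at 63.8 and 68.0 TPM in replicates 1 and 2, and the neural factor Pou3f2 at 40.0 and 49.4 TPM. Stat3, the factor of cytokine signalling to glia, was at 26.6 and 25.9 TPM, the receptor Notch1 at 16.8 and 20.0 TPM and Ski at 13.1 and 13.5 TPM. Of the factors of the oligodendrocyte lineage on this list, Olig2 was at 4.06 and 4.97 TPM and Sox10 at 1.65 and 1.89 TPM, while Olig1, which is on the marker list of oligodendrocyte precursors only, was at 33.1 and 27.4 TPM. None of the genes on these lists was called between the libraries, and their tested members all lay below 0, with medians from -0.30 to -0.19. Among all genes, 7251 of 13927 lay below 0. Other lists were also shifted, with 3 of 3 red blood cell genes (median -0.35), 3 of 3 microglia genes (-0.26), 3 of 3 endothelium genes (-0.24) and 42 of 54 forebrain transcription factors (-0.18) below 0.

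**Figure D5:**
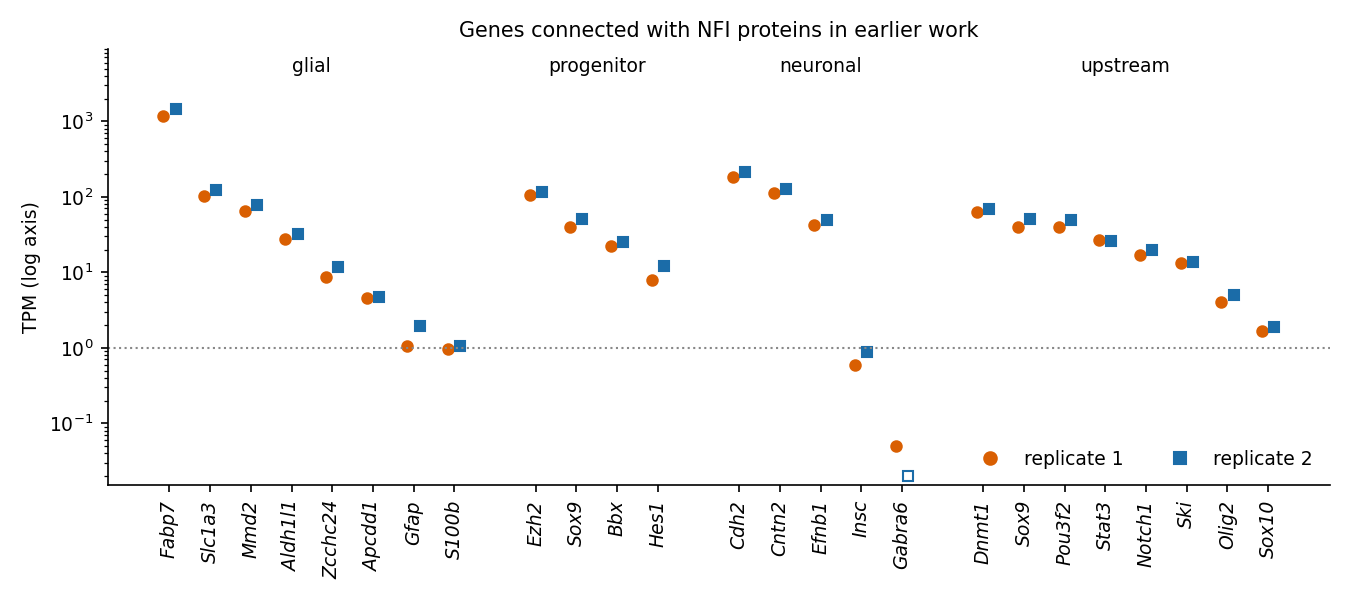
TPM (log axis) of genes connected with NFI proteins in earlier work, in replicate 1 (circles) and replicate 2 (squares), with a dotted line at 1 TPM and an open symbol for a value of 0 placed at the foot of the axis. Fabp7 lies highest, at 1172 and 1456 TPM, and Gfap, S100b, Insc and Gabra6 lie near or below the line.

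In the genome, 22 annotated genes overlap a member or start within 50 kb of its start, and 21 of them are listed. Of the 10 that overlap, 8 lie on the opposite strand, and strandedness of the counting is not given in the sources used here. Without strand, reads from a member and its overlapping partner cannot be told apart. E130114P18Rik, opposite Nfia, was at 25.9 and 29.3 TPM in replicates 1 and 2, and Gm11266, antisense to Nfib, at 26.9 and 25.2 TPM. Lyl1 and G430095P16Rik, opposite Nfix, were at 2.16 and 2.46 TPM and at 1.85 and 1.66 TPM. Gm16104, antisense to Nfic, was at 0.88 and 2.73 TPM, and Gm11267, within Nfib on its own strand, at 0.77 and 0.13 TPM. The other overlapping genes that are listed, n-R5s188, Gm11268 and Gm11269, were at 0 in both libraries. Each partner held fewer counts than its member, the highest being the 591 and 465 counts of Gm11266 against 26664 and 25643 for Nfib.

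Of the 12 neighbours that do not overlap, Calr, an endoplasmic reticulum chaperone near Nfix, was the highest at 508 and 534 TPM in replicates 1 and 2. Also near Nfix, Gadd45gip1 was at 28.5 and 26.6 TPM and Dand5 at 7.25 and 6.92 TPM. Near Nfic, the RNA-binding protein gene Celf5 was at 76.4 and 62.9 TPM and Ncln at 68.1 and 60.7 TPM, both above Nfic itself. S1pr4, Gm12676, Gm16105, Gm16106, Gm25595 and 1700122E12Rik were at 1.20 TPM or less. None of the 9 neighbours with enough counts was called between the libraries.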

How the data were processed

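Per the labels, a mirVana kit served for extraction and a SMARTer Ultra Low kit manual is listed. The assembly was mm10 per the labels, and transcripts of GENCODE M4 were quantified, per a deposited readme. No aligner or quantifier is named in the sources used here. Column names match those of RSEM. The authors deposited expected counts per gene and transcript, without normalization, for each library separately. The authors deposited TPM scaled over all features, with spike-ins at 5.93% of it in replicate 1 and 4.10% in replicate 2. The deposited FPKM, used as an alternative, equal TPM once rescaled to a sum of 1000000. The deposited transcript shares are percent of the gene's TPM.

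Names and coordinates came from GENCODE M21 (42462 of 43346 genes matched by identifier), and all 34 member transcripts have the same length there. Expected counts were rounded, scaled with TMM in edgeR 4.0.16 (R 4.3.3) and compared with a prior count of 0.5 and exact Clopper-Pearson 95% intervals. Other steps used Python 3.11.15, pandas 2.3.3, scipy 1.17.1 and Biopython 1.88 (alignment scores 1, -1, -4 and -1 for match, mismatch, gap opening and extension). Calling was tested on simulated data, and the outcome is not given here. Named genes are the members, their transcripts at 5% or more, overlapping genes or genes starting within 50 kb, the 3 nearest listed factors, all context genes, and of the marker lists those called, at 0 or highest, given mainly as sums. Some genes that this rule takes are not reported here. The members and lists were chosen with earlier results of these data known. Alternatives covered units, scalings, filters, length models and each library alone.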

Additional observations from a re-analysis of the deposited data

How the results depend on the processing

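The level of Nfix against Nfib was the result that turned with the processing. The length of the longest listed transcript, given to the members only, was an alternative chosen after seeing the data. With it, levels were 129 TPM for Nfix, 169 for Nfib, 69.7 for Nfia and 10.8 for Nfic. Shares of the family were 33.9%, 44.8%, 18.4% and 2.87% in the same order of genes. Log2 ratios were then -0.40 for Nfix over Nfib, 1.28 for Nfib over Nfia and 2.69 for Nfia over Nfic. Taking coding transcripts of complete ends only, also chosen after seeing the data, left out the reads of all other transcripts. Levels were then 156 TPM for Nfix, 160 for Nfib, 70.6 for Nfia and 17.5 for Nfic, and shares 38.4%, 39.7%, 17.5% and 4.40%. Log2 ratios were -0.049 for Nfix over Nfib and 1.18 for Nfib over Nfia. Under each of these alternatives, 2 of the 3 neighbouring pairs stood in the order of the deposited TPM. Counts per kilobase of effective length and 1000000 gene counts gave 244 for Nfix, 134 for Nfib, 46.2 for Nfia and 11.97 for Nfic, in the deposited order. Without spike-ins in the sum, Nfib stood at 238 and Nfic at 21.3 TPM. Rescaled FPKM and posterior mean TPM moved no level, share or order beyond the SD.

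With either library left out, Nfix ranged from 364 to 460 TPM, Nfib from 218 to 234, Nfia from 73.5 to 82.4 and Nfic from 19.6 to 20.8.

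The calls between libraries numbered 191, against 536 with spike-in scaling, 470 and 38 with mean counts of at least 20 and 200, and 1098 with no minimum. Spike-in scaling moved the median of all genes to -0.56, and turned the split of the calls to 21 higher in replicate 1 and 515 in replicate 2. With spike-in scaling the members stood at -0.86 (Nfix), -0.77 (Nfia), -0.73 (Nfib) and -0.62 (Nfic), a shift shared by all genes. No member was called under the 8 settings. Count minimums cannot alter a gene's own ratio. The NFI palindrome was in 0.0365% of promoters and TTGGC alone in 46.7%. Of 71 transcript shares under alternatives, 64 moved by no more than the SD and 7 moved further. The 64 include the shares from each library alone, which with 2 libraries always lie within the SD of the mean. Those shares could not count as moved, so the 64 overstates stability. The 7 that moved came from posterior mean shares or from coding transcripts only. Of 30 exon inclusions 29 moved by no more than the SD, and of 12 start region shares 8. These counts overstate stability as well. Taking only coding spanning transcripts left every listed exon of Nfib, Nfic and Nfix at the same value. Merging starts within 2000 bp left the leading region of each gene at the same share. The largest move was that of the leading start region of Nfia, from 90.4% to 46.8%, when starts within 100 bp were merged.

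Precision is limited by 2 libraries, by transcript models that end early, and by counting error, which intervals cover alone. No paired analysis was possible because the design has 1 group.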
